A study of Mus musculus with 6 samples.

Results

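The genes described here are 10 members of the fibroblast growth factor (FGF) pathway in mouse mammary epithelium. They are the receptors Fgfr1, Fgfr2 and Fgfr3, the ligands Fgf1 and Fgf2, the Sprouty inhibitors Spry1, Spry2 and Spry4, and the ETS transcription factors Etv4 and Etv5. They were chosen by name for their role in the pathway, from 20660 genes that had at least 1 probe on the array, and 16 probes measured them. RNA from freshly sorted cells of female C57Bl6/J mice was labelled with 1 dye and measured on Agilent mouse gene expression arrays, for 2 populations with 3 biological replicates each and 1 array for each replicate. The E18.5 fetal population was CD31-CD45-Ter119-EpCAM++CD49f+, sorted from embryonic day 18.5 glands. The adult basal population was CD31-CD45-Ter119-BP-1-EpCAM+CD49f+, sorted from the glands of animals 8–12 wk of age. No genetic change or treatment is given for either population. The populations differed in age and also in the EpCAM gate, in the exclusion of BP-1+ cells (adult only) and in the length of the enzymatic digestion (overnight for the adult glands, shorter for the fetal glands). These differences cannot be told apart from age. The labels and the study's methods both name low-input Quick Amp labelling, in the methods with its whole-transcript (WT) protocol. How many animals were pooled for a replicate is not given in the sources used here, so the p-values measure the spread between these samples.

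FGFs are secreted proteins that bind receptor tyrosine kinases on the cell surface together with heparan sulfate, and the receptors then signal through adaptor proteins to the RAS-MAPK cascade. In the embryonic mammary gland this signalling is required for the early epithelial buds, and in the postnatal gland for the growth of the branching ducts. Sprouty proteins and several MAPK phosphatases are induced by the pathway and dampen it, and Etv4 and Etv5 are transcription factors whose genes are widely used as readouts of FGF signalling.

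The Sprouty gene Spry1 and the ETS gene Etv5 were higher in the fetal cells, by 4.52-fold and 5.30-fold, and the ligand Fgf1 was 3.70-fold higher in the adult basal cells. The other Sprouty genes (Spry2, Spry4) and Etv4 had a higher mean in fetal cells, and Fgf2 had a higher mean in adult basal cells, and none of these 4 was called with Holm adjustment. Of the 16 probes, 8 had a higher mean in each population, and the probes of each of the 5 genes with several probes lay on the same side. With Holm adjustment over all 20448 probes tested, an adjusted p of at most 0.05 and at least a 2-fold difference in limma, 3 member probes were called. These were the probes of Etv5, Spry1 and Fgf1. The share of called probes was 18.8% among the members and 11.1% among all probes tested (5.92% called higher in fetal and 5.18% called higher in adult basal cells). With the less strict Benjamini-Hochberg adjustment and the same 2-fold limit, 7 member probes were called, beside 30.0% of all probes. The probes of Fgf2 and Spry4 are among the 7 and passed the low-signal filter only through the population where they were high. Of these 7, 3 were higher in fetal and 4 in adult basal cells, and of all probes 3267 and 2866 were. With the Benjamini-Hochberg-adjusted limma p alone and no limit on the fold, 15 of the 16 member probes passed, beside 61.1% of all probes. In 15 of the 16 probes no fetal array overlapped an adult basal array, beside 69.0% of all probes, so separation of the 6 arrays was common on this array and is read from the sizes below. Values are log2 signal after quantile normalization of the 6 arrays, and differences are fetal minus adult basal with the SE of the limma fit. In bulk samples like these, a lower signal can come from fewer cells of a type or from less RNA per cell, and the 2 cannot be told apart.

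**Figure D1:**
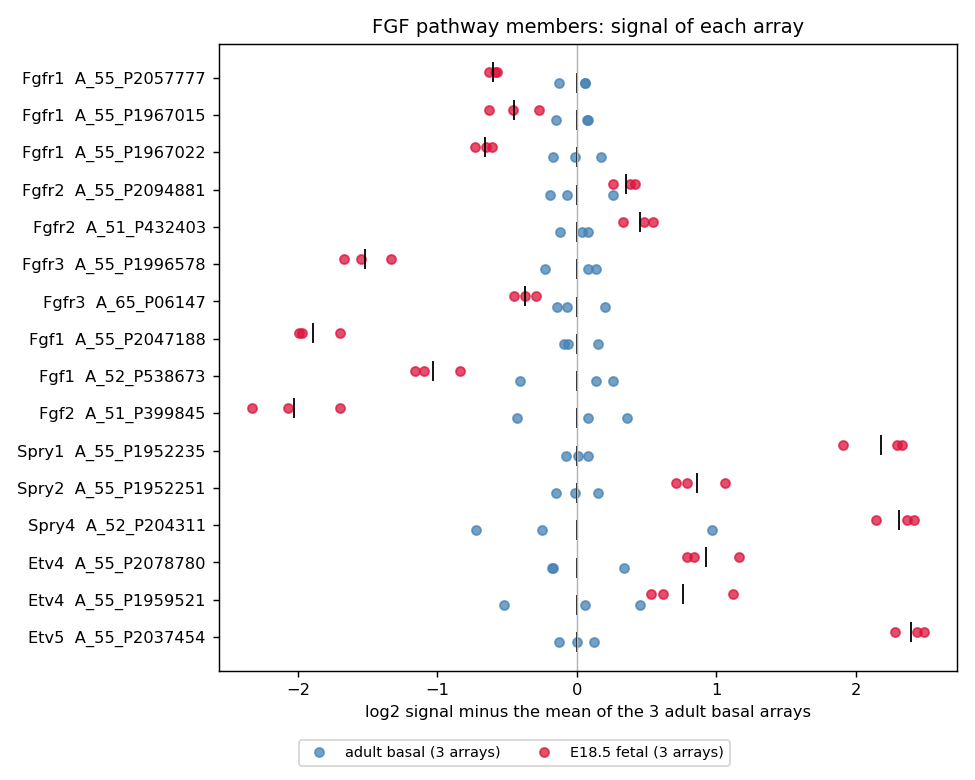
Log2 signal of each of the 16 member probes on each array (points), minus the mean of the 3 adult basal arrays, with the mean of each population as a vertical tick. The fetal points of Spry1, Spry4 and Etv5 lie about 2 log2 units to the right of the adult basal points, those of Fgf1 (A_55_P2047188) and Fgf2 lie about 2 units to the left, and the receptors lie closer to 0.

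The arrays were compared with cell type markers first. Of 10 basal markers, 8 were called lower in fetal cells by limma with Holm adjustment (median log2 fold change -4.01), among them the smooth muscle genes Acta2 (-4.07) and Myh11 (-8.63) and the keratin Krt5 (-3.90). The adult arrays therefore carried the markers of their label. Among the called basal markers, Myh11 passed the low-signal filter only through its adult basal mean of 14.35, since the fetal mean was 5.72. Krt14, a keratin of basal cells, was 13.39 on adult basal array 2, against 15.25 and 15.46 on the other adult arrays. The 2 probes of Trp63, the transcription factor p63, disagreed (-0.08 and -3.06). Of 11 luminal markers, 4 were called higher in fetal cells, with Elf5 at 7.55, Foxa1 at 6.46, Kit at 4.0 and Pgr at 2.13. With slide as a block Pgr differed by 2.14 and lost its Holm call (limma, Holm-adjusted p = 0.081). The luminal keratins Krt8 (0.44) and Krt18 (0.58, the probe with the highest signal of the list) were not called. The 2 probes of Prlr disagreed. The brighter one, used in the list, differed by -0.35 and was not called. The other differed by 1.85 (limma, Holm-adjusted p = 0.026), a call lost with slide as a block (1.82, Holm-adjusted p = 0.15). Krt19 (-1.22), Krt7 (-1.29) and Esr1 were called lower in fetal cells with Benjamini-Hochberg adjustment. The Esr1 probe exceeded background clearly on 1 of the 3 fetal arrays and passed the low-signal filter only through its adult basal mean, as Elf5 did only through its fetal mean. The antigens of the sort were compared too. Epcam was called, with a difference of 1.88 (limma, Holm-adjusted p = 0.026). With slide as a block the Epcam difference was 1.89 and the Holm call was lost (limma, Holm-adjusted p = 0.15). Itga6, the gene of CD49f, differed by 0.01, Pecam1 by -0.14 and Ptprc by -0.31, and the BP-1 gene Enpep did not rise above background on any array.

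Markers of other cell types were read from the same arrays. All 6 leukocyte markers had a lower mean in fetal cells (median -2.27). None was called by limma with Holm adjustment and 4 were with Benjamini-Hochberg, and 4 had an unadjusted p under 0.05. Of the called markers, Cd52, Lyz2 and Tyrobp passed the low-signal filter only through the adult basal mean, as did Laptm5, which was not called. The summed signal of the 6 markers was 392, 449 and 493 on fetal arrays 1, 2 and 3. It was 2061, 1520 and 4088 on adult basal arrays 1, 2 and 3. The Cd74 probe had the highest signal of the list. Adult basal array 3 thus stood above the other adult arrays. Of the fibroblast markers, 7 of 8 were tested and all 7 had a lower mean in fetal cells (median -0.90), with 1 of them called (Dcn, -3.78). Fap, which was not called, passed the low-signal filter only through the adult basal mean. Col1a2, whose probe had the highest mean of the list over the 6 arrays, was 11.35, 11.24 and 11.69 in the fetal replicates, against 12.05, 12.03 and 12.89 in the adult basal replicates, and Dcn was 9.50, 9.54 and 9.78 against 13.04, 13.39 and 13.72. Of the endothelial markers, 4 were tested and none called with Holm adjustment in limma (median -0.97). With Benjamini-Hochberg 2 were called lower in fetal cells (Cdh5 and Emcn), and 2 had an unadjusted p under 0.05. Both Cdh5 and Emcn passed the low-signal filter only through the adult basal mean. None of the 5 adipocyte markers was called with either adjustment in limma, and 2 had an unadjusted p under 0.05. Adipoq was 8.17 on fetal array 3, against 5.62 and 3.99 on the other fetal arrays, and Cfd was 9.19, against 6.44 and 4.42. In the salivary gland list, 7 genes were tested and 4 were called higher in fetal cells (Dcpp1, Smr3a, Dcpp2 and Aqp5, median of the list 5.79), although mammary cells can express Aqp5 too. The first 3 of these passed the low-signal filter only through the fetal mean. Amy1 (-1.19) was called lower in fetal cells with Benjamini-Hochberg adjustment only, and Bpifa2 (-0.43) was not called. Both Amy1 and Bpifa2 passed the low-signal filter only through the adult basal mean. Of 4 epidermal genes tested, Krt10 was called higher (1.47) and Krt15 lower (-3.85) in fetal cells. The part these other cells may have in the differences below was not tested. With adult basal array 3 left out, the difference was -1.81 for Fgf1, 2.18 for Spry1 and 2.34 for Etv5, close to the values with all arrays. The Holm-adjusted p in limma was then 0.14, 0.16 and 0.018, so Fgf1 and Spry1 were not called. Fgf1 also lost its call without any other array, and Spry1 without any array but fetal array 1. The loss was thus not particular to adult basal array 3.

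**Figure D2:**
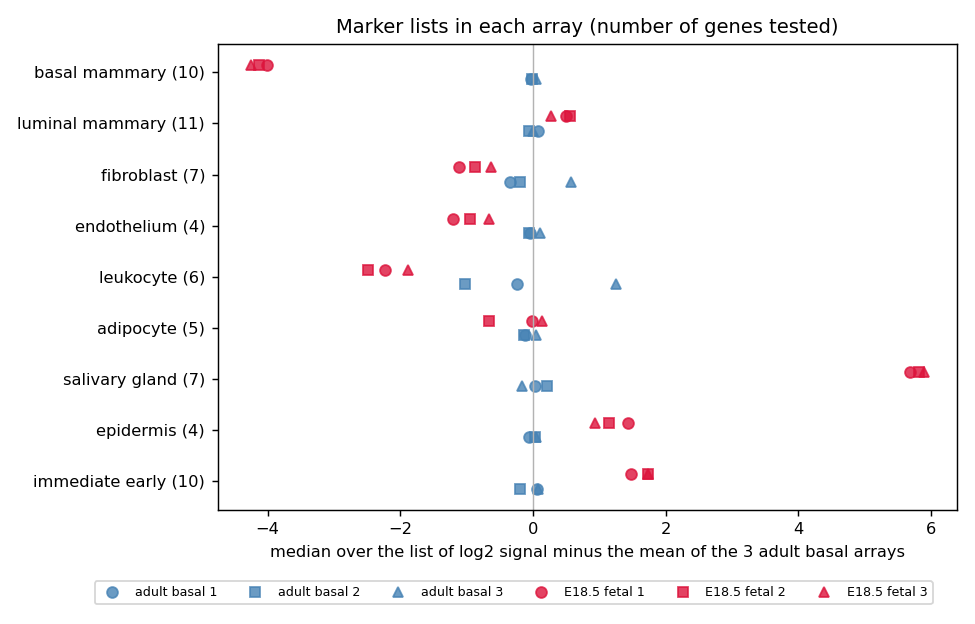
Median over each marker list of the log2 signal minus the mean of the 3 adult basal arrays, for each array (symbol, replicate number; color, population), with the number of genes tested in brackets. The basal list lies near -4 in all fetal arrays, the salivary gland list between 5 and 6, and the leukocyte list spreads most among the adult arrays, with adult basal 3 highest.

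Fgfr1, Fgfr2 and Fgfr3 encode receptors that bind FGFs outside the cell and phosphorylate adaptors inside it. Fgfr1 gave 14.62, 14.60 and 14.56 in the 3 fetal replicates, against 15.06, 15.25 and 15.25 in the 3 adult basal replicates (A_55_P2057777). All adult values lay above all fetal values, by less than 1 log2 unit. The difference was -0.60 (SE 0.10, 95% CI -0.83 to -0.36, 1.51-fold), which passed limma with Benjamini-Hochberg adjustment (adjusted p = 0.0016) but not the 2-fold limit. Its other 2 probes differed by -0.45 (SE 0.13) and -0.66 (SE 0.12), so the 3 probes of Fgfr1 lay between -0.66 and -0.45. Which of the receptor's splice forms each probe reads was not determined here.

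Fgfr2, the receptor that mammary epithelium uses for stromal ligands such as Fgf7 and Fgf10, gave 10.61, 10.65 and 10.49 in the fetal replicates, against 10.16, 10.49 and 10.04 in the adult basal replicates (A_55_P2094881). This was the one member probe whose populations overlapped, because adult basal array 2 reached the lowest fetal value. The difference was 0.35 (SE 0.14, 95% CI 0.02 to 0.68; limma, Benjamini-Hochberg-adjusted p = 0.061). A further probe, the mean of 10 spots, gave 9.17, 8.95 and 9.10 in fetal cells and 8.70, 8.50 and 8.66 in adult basal cells, without overlap. Its difference was 0.45 (SE 0.11, 95% CI 0.19 to 0.71; adjusted p = 0.0095 by the same test). Within the second slide the first probe differed by 0.08 and the other by 0.53. The second probe thus passed the test without reaching the 2-fold limit, and the first did not pass.

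Fgfr3 gave 9.27, 9.49 and 9.15 in the fetal replicates, against 10.96, 10.59 and 10.90 in the adult basal replicates (A_55_P1996578). The adult arrays lay at least 1 log2 unit above the fetal arrays. The difference was -1.51 (SE 0.14, 95% CI -1.85 to -1.17, 2.85-fold), called by limma with Benjamini-Hochberg adjustment (adjusted p = 7.9e-05) but not with Holm adjustment (adjusted p = 0.23). Its other probe, A_65_P06147, gave 8.94, 8.86 and 8.78 against 9.09, 9.43 and 9.16, a difference of -0.37 (SE 0.12, 95% CI -0.66 to -0.09). The 2 probes of Fgfr3 had the same direction, and their confidence intervals for the difference did not overlap. With the mean of both probes the difference was -0.94.

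Fgf1 and Fgf2 encode ligands that lack a classical secretion signal. Fgf1, which binds all FGF receptors, gave 11.90, 12.17 and 11.88 in the fetal replicates, against 13.81, 13.78 and 14.02 in the adult basal replicates (A_55_P2047188). The populations were separated by more than 1.5 log2 units, and the arrays within each differed by less than 0.3. The difference was -1.89 (SE 0.13, 95% CI -2.18 to -1.59, 3.70-fold) and was called (limma, Holm-adjusted p = 0.021). The other Fgf1 probe, A_52_P538673, gave 6.42, 6.48 and 6.74 against 7.84, 7.17 and 7.72, a difference of -1.03 (SE 0.19, 95% CI -1.48 to -0.58). It was called with Benjamini-Hochberg adjustment only. The 2 Fgf1 probes had the same direction and differed in size, with a mean of -1.46. The call of the first probe was close to the threshold. With any 1 of the 6 arrays left out its difference was -1.98 to -1.81 and its Holm-adjusted p in limma 0.056 to 0.33. With slide as a block it was -1.88 (Holm-adjusted p = 0.13), and within the slides -2.02 and -1.75. With Benjamini-Hochberg adjustment it was called in each of these fits. Its Holm call was also lost without the low-signal filter (Holm-adjusted p = 0.14) and with probes that match no gene included (Holm-adjusted p = 0.051). The second probe lost that call without adult basal replicate 1 (-0.90) or 3 (-0.96) and without fetal replicate 1 (-0.97) or 2 (-1.0), and with slide as a block (-0.96).

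Fgf2, a ligand that is stored on heparan sulfate in the matrix, gave 3.92, 4.55 and 4.18 in the fetal replicates, against 6.61, 5.82 and 6.33 in the adult basal replicates (A_51_P399845, the mean of 10 spots). The adult arrays were higher without overlap. The probe was well above background on 2 of the 3 fetal and all 3 adult arrays, so the fetal values lie near the lower end of what the array could measure. It passed the low-signal filter (boundary near 5.949) only through the adult basal mean of 6.25, since the fetal mean was 4.22. The difference was -2.03 (SE 0.24, 95% CI -2.59 to -1.47, 4.09-fold), called by limma with Benjamini-Hochberg adjustment (adjusted p = 0.00022) and not with Holm adjustment (adjusted p = 0.81). It was -2.55 within the first slide and -1.45 within the second, and -2.25 to -1.85 with 1 array left out.

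Spry1, Spry2 and Spry4 encode Sprouty proteins, which act inside the cell to limit signalling from receptor tyrosine kinases to MAPK. Spry1 gave 13.01, 13.43 and 13.40 in the fetal replicates, against 11.02, 11.18 and 11.11 in the adult basal replicates (A_55_P1952235). All fetal values lay more than 1.5 log2 units above all adult values. The difference was 2.18 (SE 0.14, 95% CI 1.85 to 2.50, 4.52-fold) and was called (limma, Holm-adjusted p = 0.016). It was 2.10 to 2.31 with 1 array left out and remained called only without fetal replicate 1 (Holm-adjusted p = 0.023 in limma). Without adult basal replicates 1, 2 and 3 in turn the Holm-adjusted p was 0.18, 0.054 and 0.16, and without fetal replicates 2 and 3 it was 0.19 and 0.18. With Benjamini-Hochberg adjustment it was called in all 6 of these fits. With slide as a block the difference was 2.09 (Holm-adjusted p = 0.025 in limma). The call was lost without the low-signal filter, where more probes entered the adjustment (Holm-adjusted p = 0.12).

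Spry2 gave 9.46, 9.11 and 9.19 in the fetal replicates, against 8.39, 8.55 and 8.25 in the adult basal replicates. The populations did not overlap, but their distance was under 1 log2 unit. The difference of 0.86 (SE 0.13, 95% CI 0.54 to 1.18, 1.82-fold) had a Benjamini-Hochberg-adjusted p of 0.001 in limma and missed the 2-fold limit. Spry4 gave 7.89, 8.11 and 8.16 in the fetal replicates, against 5.49, 5.02 and 6.71 in the adult basal replicates. It passed the low-signal filter only through the fetal mean of 8.05, since the adult basal mean was 5.74. Its fetal arrays agreed within 0.3, whereas adult basal array 3, the array with the highest leukocyte markers, stood above the other adult arrays. The difference was 2.31 (SE 0.39, 95% CI 1.39 to 3.23, 4.96-fold), called by limma with Benjamini-Hochberg adjustment (adjusted p = 0.0015) and not with Holm adjustment (adjusted p = 1). With 1 array left out it was 1.95 (without adult basal replicate 2, Holm-adjusted p = 1) to 2.80 (without adult basal replicate 3, Holm-adjusted p = 0.052). It was 1.79 within the first slide and 3.11 within the second. The SD over the adult arrays was 0.87 for Spry4, the highest of the 16 member probes, against a median of 0.18 over all probes tested.

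Etv4 and Etv5 encode ETS factors of the PEA3 group, which are switched on by FGF signalling through MAPK. Etv5 gave 15.19, 15.35 and 15.40 in the fetal replicates, against 13.03, 12.91 and 12.78 in the adult basal replicates (A_55_P2037454). Every fetal array was more than 2 log2 units above every adult array. The difference was 2.41 (SE 0.11, 95% CI 2.14 to 2.67, 5.30-fold) and was called (limma, Holm-adjusted p = 0.0019). It remained called with any 1 array left out (2.34 to 2.47, Holm-adjusted p 0.009 to 0.045) and with slide as a block (2.37, Holm-adjusted p = 0.014). By p-value its rank was 777 of the 20448 probes. Etv4 gave 13.20, 13.25 and 13.57 in the fetal replicates, against 12.75, 12.23 and 12.24 in the adult basal replicates (A_55_P2078780). Its fetal arrays were all higher, with adult basal array 1 nearest to them. The difference was 0.93 (SE 0.18, 95% CI 0.51 to 1.35, 1.91-fold, limma with Benjamini-Hochberg-adjusted p = 0.0028), and the other Etv4 probe gave 0.76 (SE 0.27, 95% CI 0.13 to 1.39). Both were under the 2-fold limit. Without adult basal replicate 1 the first probe was 1.11 higher and without fetal replicate 1 it was 1.0 higher, and it was then called with Benjamini-Hochberg adjustment. The other probe was 0.50 higher without adult basal replicate 2.

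**Figure D3:**
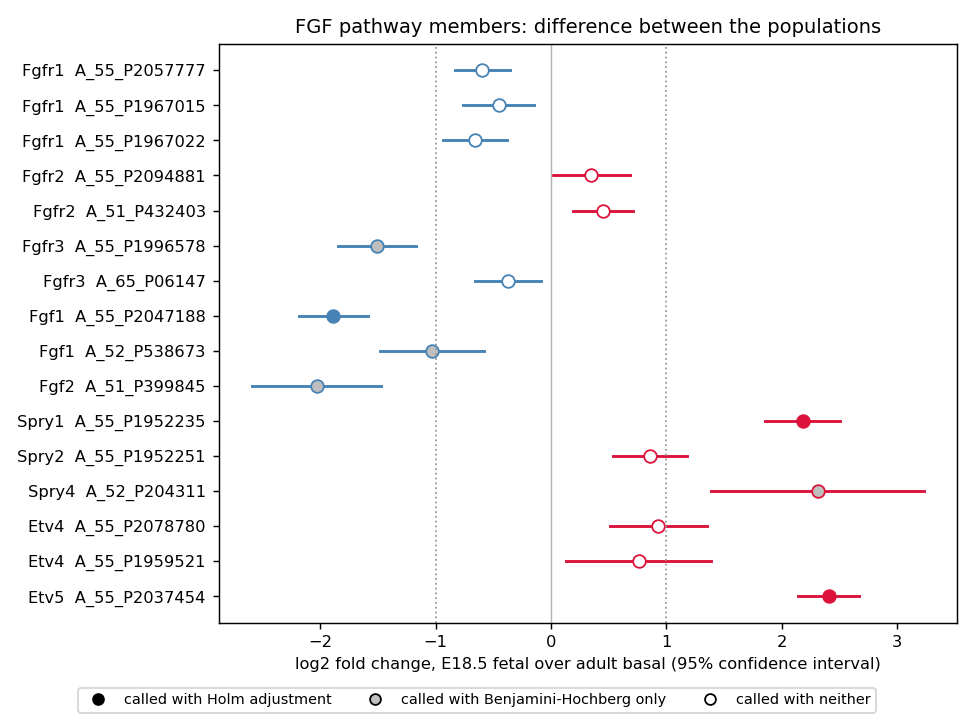
Log2 fold change of each member probe (fetal over adult basal, point) with its 95% confidence interval from the limma fit, and dotted lines at a 2-fold difference. The intervals of Etv5 (2.14 to 2.67), Spry1 (1.85 to 2.50) and Fgf1 (-2.18 to -1.59) lie wholly beyond a 2-fold difference and those 3 probes are filled. The intervals of Fgfr3 A_55_P1996578 (-1.85 to -1.17), Fgf2 (-2.59 to -1.47) and Spry4 (1.39 to 3.23) also lie beyond it without a Holm call, while the Fgfr1 and Fgfr2 intervals lie within it.

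Entries from RefSeq's promoter table (GRCm38.p6) were used for 6 of the 10 members, 8 start sites in all. The search left out 1 chromosome, so a member without an entry here may still have one in that table. Among the entries used, Sprouty and ETS members were picked since Spry1 and Etv5 were called higher in fetal cells, with Spry2 beside Spry1. The 250 bases before each gene's start are shown. They lie just outside the annotated genes, at chr3:37639697-37639946 on the plus strand, at chr14:105896820-105897069 on the minus strand and at chr16:22439571-22439820 on the minus strand (the first of 2 Etv5 start sites). Each is printed 5′ to 3′ on the gene's strand, in lower case, with matches to the GC box in capitals.
Spry1: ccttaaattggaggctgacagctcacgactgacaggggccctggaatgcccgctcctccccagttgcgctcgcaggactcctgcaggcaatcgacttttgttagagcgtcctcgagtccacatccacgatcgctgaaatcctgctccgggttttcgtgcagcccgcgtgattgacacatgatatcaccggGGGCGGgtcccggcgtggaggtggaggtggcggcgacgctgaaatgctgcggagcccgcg
Spry2: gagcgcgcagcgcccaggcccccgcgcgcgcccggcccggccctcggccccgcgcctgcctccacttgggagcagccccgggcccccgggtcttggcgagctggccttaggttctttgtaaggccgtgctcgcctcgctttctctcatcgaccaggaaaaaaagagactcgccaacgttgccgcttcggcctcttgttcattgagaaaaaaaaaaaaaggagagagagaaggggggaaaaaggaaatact
Etv5: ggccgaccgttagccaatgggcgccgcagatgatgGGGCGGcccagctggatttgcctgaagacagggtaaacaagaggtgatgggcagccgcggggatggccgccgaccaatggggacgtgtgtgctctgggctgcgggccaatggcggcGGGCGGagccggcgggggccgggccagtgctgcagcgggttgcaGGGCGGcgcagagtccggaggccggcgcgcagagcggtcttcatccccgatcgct
Both strands of all 8 entries were searched for 5 motifs. The motif of ETS factors was spelled CCGGAAG. The AP-1 motif that binds FOS and JUN proteins was spelled TGAGTCA. For the cyclic AMP response element, called CRE, the palindrome TGACGTCA was used. The GC box bound by SP factors was spelled GGGCGG. For the TATA box that positions the polymerase at some promoters, TATAAA was used. No 2 matches in the sequences printed above overlapped. The GC box was found in 5 of the 8 entries, among them Spry1 with 1 match and the printed Etv5 entry with 3. It was not found in the entries of Spry2 and Fgfr2 or in the other Etv5 entry. Among 32851 promoters, 32.7% held it in the same window. The other 4 motifs were found in none of the 8 entries. Among all promoters 6.91% held the ETS motif, 4.46% the AP-1 motif, 1.55% the CRE and 12.4% the TATA motif. A match or its lack describes these letters in this window only.

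The rest of the pathway was taken from 7 lists of 79 further genes, of which 64 had a probe that passed the low-signal filter, 1 probe for each gene. By limma with Holm adjustment, 8 of the 64 were higher in fetal and 3 higher in adult basal cells, beside 6.03% and 5.21% of all 15734 genes tested. With Benjamini-Hochberg adjustment these counts were 12 and 10, beside 15.8% and 13.9% of all genes. Neither Benjamini-Hochberg count stood far from the share over all genes. With Holm adjustment the share higher in fetal cells was above that over all genes, and this excess was not tested. The median log2 fold change was -0.09 over the 64 genes and -0.04 over all genes. The calls lay in the feedback inhibitors, the transcription factors and targets, the heparan sulfate genes, the ligands and the RAS-MAPK cascade.

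Of 9 other feedback inhibitors, 7 were tested and 2 were called higher in fetal cells (median of the list 0.71). Dusp6, a cytoplasmic phosphatase that inactivates MAP kinases, gave 16.06, 15.89 and 15.92 in the fetal replicates, against 13.65, 13.76 and 13.67 in the adult basal replicates. The populations did not overlap, and the difference of 2.27 (SE 0.10, Holm-adjusted p = 0.0012 in limma) was close in size to those of Spry1 and Etv5. Dusp5, a nuclear phosphatase of MAP kinases, was 2.46 higher (SE 0.16, Holm-adjusted p = 0.017), a call that was kept only without fetal replicate 1 when arrays were left out (2.30 to 2.58, Holm-adjusted p 0.047 to 0.19). Il17rd, a membrane inhibitor of FGF signalling also called Sef, differed by 0.83 and Dusp4 by 0.71, and neither was called. Spred2, of a family related to the Sproutys, differed by -0.96 and Spred1 by 0.30.

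Of 10 other transcription factors and targets, all tested, 3 were called higher in fetal cells and none higher in adult basal cells in limma with Holm adjustment (4 and 2 with Benjamini-Hochberg, median of the list 0.84). Etv1, the third ETS factor of the PEA3 group, gave 11.96, 11.98 and 11.86 in the fetal replicates, against 9.72, 9.47 and 9.45 in the adult basal replicates. It was 2.39 higher in fetal cells (SE 0.11, Holm-adjusted p = 0.0019 in limma). Its other probe exceeded background clearly on 1 of the 3 adult arrays and passed the low-signal filter only through the fetal mean. Ccnd1, the G1 cyclin D1, gave 14.81, 14.82 and 14.82 against 8.57, 7.78 and 8.35, a difference of 6.59 (SE 0.20, Holm-adjusted p = 7.9e-05). It had the largest difference of the pathway genes that were higher in fetal cells. Phlda1, a gene induced by MAPK signalling, was 3.90 higher (SE 0.25, Holm-adjusted p = 0.014). With 1 array left out Phlda1 was 3.61 to 4.06 higher and lost its call without adult basal replicate 1 or any of the 3 fetal replicates, and with slide as a block its Holm-adjusted p was 0.081. Myc (-1.34) and Ets2 (-1.23) had the opposite direction and were called with Benjamini-Hochberg adjustment only. Elk3 (1.23) was called in the fetal direction with the same adjustment.

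The immediate early genes, which MAPK signalling and also cell dissociation can induce, were higher in fetal cells for the most part. Of 10 genes, 2 were called higher in fetal cells by limma with Holm adjustment and 7 with Benjamini-Hochberg adjustment (median 1.61). Nr4a1 was 3.50 higher and Fosb 2.36 higher, and Egr1 (2.50) and Fos (1.99) had Holm-adjusted p-values of 0.055 and 0.058. The summed signal of the list, in which the Jun probe had the highest signal, was 3.48e+05, 3.90e+05 and 3.90e+05 in the fetal replicates, against 8.97e+04, 9.79e+04 and 1.03e+05 in the adult basal replicates. Digestion differed between the populations, and its part in the differences given here was not tested.

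Of 18 heparan sulfate genes, all tested, 3 were called higher in fetal and 1 higher in adult basal cells by limma with Holm adjustment, and 5 and 4 with Benjamini-Hochberg adjustment (median -0.11). Sulf1 and Sulf2 encode enzymes that remove 6-O-sulfates from heparan sulfate outside the cell, and they differed in opposite directions. Sulf1 gave 6.02, 6.08 and 5.71 in the fetal replicates, against 12.19, 11.90 and 11.87 in the adult basal replicates, a difference of -6.05 (SE 0.14, Holm-adjusted p = 1.5e-05 in limma). The fetal mean of this probe, 5.94, lay near the boundary of the low-signal filter, and the adult basal mean was 11.98. The second Sulf1 probe differed by -2.73 (Holm-adjusted p = 0.0042), less than the first but also called. Sulf2 gave 11.50, 11.43 and 11.12 against 8.42, 7.93 and 7.49, a difference of 3.41 (SE 0.23, Holm-adjusted p = 0.026). Hs6st2, which adds 6-O-sulfates, was 2.94 higher in fetal cells (SE 0.17, Holm-adjusted p = 0.0091), and the glypican Gpc3 was 3.22 higher (SE 0.12, Holm-adjusted p = 0.00047). Gpc3 and Sulf1 kept their calls with any 1 array left out. Sulf2 lost its call without adult basal replicate 2 or any fetal replicate (3.18 to 3.64, Holm-adjusted p up to 0.39) and with slide as a block (Holm-adjusted p = 0.12). Hs6st2 lost its call without adult basal replicate 3 or any fetal replicate (2.82 to 3.09, Holm-adjusted p up to 0.17). Fgfbp1, a carrier that releases FGFs from the matrix, differed by 2.44 (Holm-adjusted p = 0.069), and it and the glypican Gpc6 (1.16) were called higher in fetal cells with Benjamini-Hochberg adjustment only. Fgfbp1 passed the low-signal filter only through the fetal mean of 7.53, since the adult basal mean was 5.09. The glypican Gpc4 (-1.72) and the syndecans Sdc3 (-1.13) and Sdc4 (-1.25) were called lower in fetal cells with Benjamini-Hochberg adjustment only.

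Of 16 other secreted ligands, 8 passed the filter and 1 was called. Fgf21, a hormone-like FGF known from the liver, gave 12.12, 12.40 and 11.97 in the adult basal replicates, and none of the 3 fetal arrays measured it well above background (1.79, 3.58 and 1.73). Its signal was at least 309-fold higher in adult basal cells, with each fetal array set to the dimmest signal that counted as well above background there, where that was higher than the probe's own. The limma fit used the measured values (means 2.37 and 12.16, Holm-adjusted p = 0.0022) and does not test that bound, and Fgf21 passed the low-signal filter only through the adult basal mean. Fgf9 was 1.17 higher in fetal cells (SE 0.18) and called with Benjamini-Hochberg adjustment only. Fgf7 differed by -0.16 and Fgf18 by -0.09. Fgf10, the stromal ligand of the embryonic gland, and Fgf3, Fgf4, Fgf5, Fgf6 and Fgf16 stayed below that level on all 6 arrays. The 2 probes of Fgf23 disagreed in direction (0.36 and -1.07), and only the first passed the filter. Among the pathway genes, probes of Fgf8, Fgf12, Fgf18, Ndst1 and Elk1 also differed in direction. No probe of Fgf12 passed the filter (-2.13 and 0.19), so it was not tested. For Fgf8, Fgf18, Ndst1 and Elk1, no tested probe was called by limma with either adjustment or had an unadjusted p under 0.05. Fgf20 did not pass the filter, and 1 of its probes was above background on all 3 fetal arrays and on none of the adult arrays.

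Of the other receptors and klothos, Fgfr4 (-0.40) and Fgfrl1 (0.13), a receptor without a kinase domain, passed the filter and were not called by limma with either adjustment (1 had an unadjusted p under 0.05), and Kl was not above background on any array. Of the intracellular FGF homologous factors, which are not secreted, Fgf11 (-0.34) and Fgf14 (0.00) passed and neither was called with either adjustment in limma (1 had an unadjusted p under 0.05). Of 18 adaptors and RAS-MAPK genes, 17 were tested and 1 was called, with a list median of -0.37. Map2k1, which encodes the kinase MEK1 of the cascade, gave 11.29, 11.17 and 11.27 in the fetal replicates, against 13.16, 12.93 and 13.23 in the adult basal replicates. The populations did not overlap, with the adult basal arrays higher. The difference was -1.86 (SE 0.11, Holm-adjusted p = 0.012 in limma), called only without adult basal replicate 2 when arrays were left out (-1.95 to -1.80, Holm-adjusted p 0.009 to 0.2). Braf (-1.52) and the adaptor Shc1 (-1.05) were called with Benjamini-Hochberg adjustment only.

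**Figure D4:**
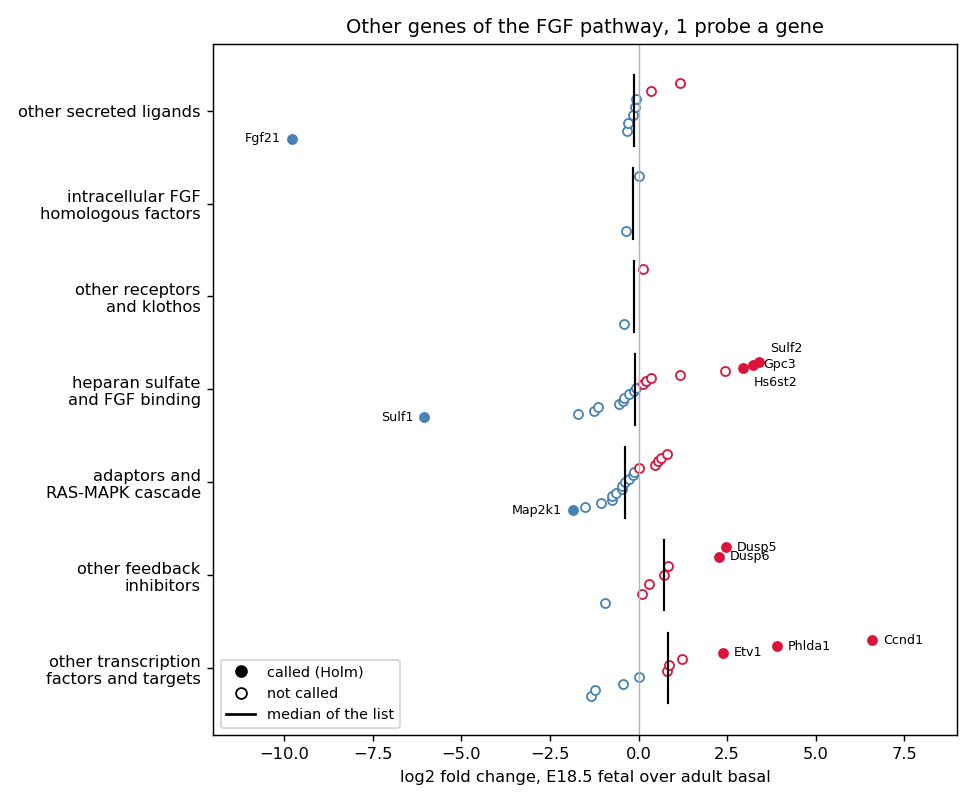
Log2 fold change (fetal over adult basal) of 64 pathway genes, 1 probe a gene, in 7 lists, with the list median as a bar and genes called with Holm adjustment filled and named. The medians of the feedback inhibitors (0.71) and of the transcription factors and targets (0.84) lie to the right of 0 and the other 5 lie between -0.37 and -0.11, with Fgf21 and Sulf1 (-6.05) farthest to the left. The Fgf21 point (-9.79) is set against fetal arrays that were not well above background, so its position is not a measured difference.

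For each called member, the 3 genes with the most similar pattern were those with the smallest root mean square distance between values over the 6 arrays, each gene centred on its own mean. They were Tmem50b (0.050), Zfp975 (0.065) and Gm5796 (0.079) for Fgf1, Gchfr (0.071), Tfdp2 (0.073) and Gjc1 (0.075) for Spry1, and Zgrf1 (0.051), Tspan6 (0.054) and Fancl (0.058) for Etv5. No member or pathway gene was among these 9.

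The differences of the members were recomputed under 12 other settings of the processing and with each array left out. No member probe reversed its direction where it was tested. Of the 12 settings, 6 change only the tests and leave the differences as they were, and an array left out cannot reverse probes whose populations do not overlap, so the ranges carry more than the directions. With normexp, Fgf2 and the Fgf1 probe A_52_P538673 were not tested, nor was Fgf2 with the offset of 16. Of the 3 called members, Etv5 stayed between 2.34 and 2.47, Spry1 between 2.09 and 2.31 and Fgf1 between -1.98 and -1.46. Spry4 had the widest range of the 16 probes, from 1.53 to 2.80.

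**Figure D5:**
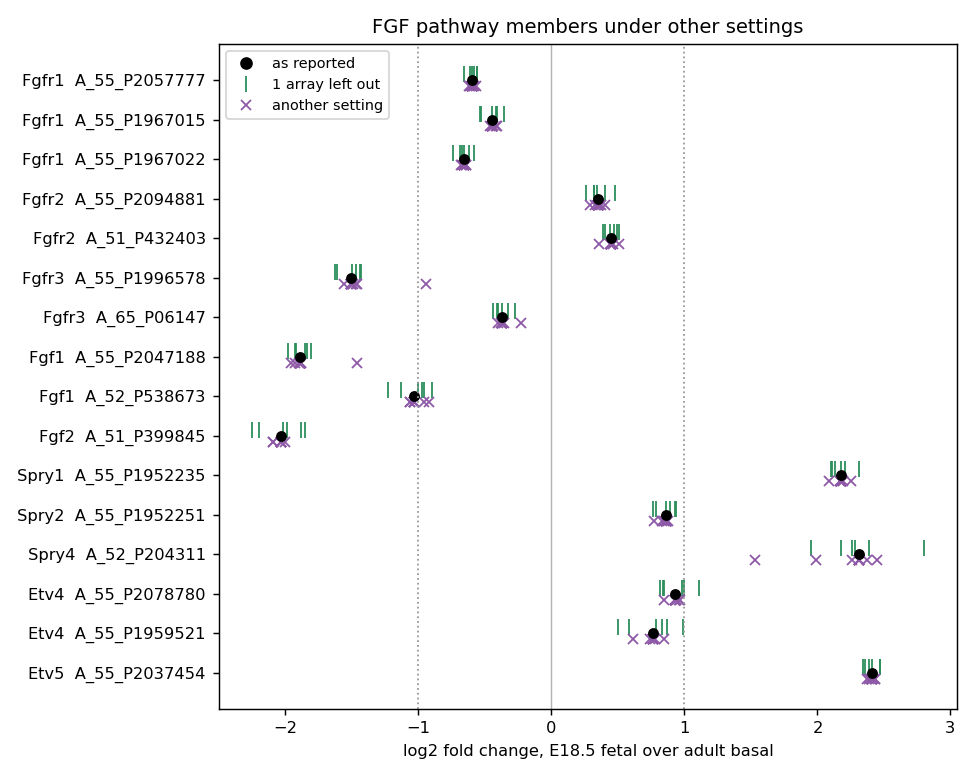
Log2 fold change of each member probe as reported (black), with 1 array left out (green bars) and under other settings of the processing (crosses), with dotted lines at a 2-fold difference. No mark of any probe lies on the other side of 0 from its reported value, and Spry4 spreads from 1.53 to 2.80.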

How the data were processed

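Per the labels and methods, each of the 6 RNA samples was hybridized to 1 array. The authors scanned the arrays with Feature Extraction 11.0.1.1, and the deposited spot intensity is background-subtracted and not normalized between arrays. The authors also deposited log2 values that they had quantile normalized, used here as an alternative. The 10 members, the pathway and marker lists and the tests were chosen with earlier results of these data known.

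Here the processed intensity was used without control spots and without the spots flagged as outliers (104 to 326 an array). It was taken to log2, averaged over the spots of each probe and quantile normalized over the 6 arrays. Probes were named by matching transcript accessions to RefSeq (GRCm38.p6; 27235 of 55681 probes, 48.9%). Its gene coordinates were not used for the probes, since the array design names another build. A probe matched to a gene was tested if its mean signal in either population lay above the lowest of 3 k-means clusters, which held for 20448. The boundary, 5.949, was the same in both populations and was applied to the log2 of the mean unlogged signal. The means printed here are of log2 values, which can be lower. Adipoq was thus tested with printed means of 5.92 (fetal) and 3.64 (adult basal). The limma functions lmFit and eBayes (version 3.58.1, R 4.3.3) were used, and probes were called at an adjusted p of at most 0.05 and a 2-fold difference, with Holm adjustment over all these probes, and Benjamini-Hochberg beside it. The fit was tested on simulated data. On each array 76.4% to 83.3% of the probes exceeded background clearly, and no spot was saturated. The number of arrays limits the precision. All 10 members, all called or disagreeing pathway genes, the examples with the largest difference in each list, sort antigens and defining markers were named by rule, and other pathway genes (Fgf7, Fgf10, Fgf18, Fgf20, Spred1, Dusp4) and the counts with Benjamini-Hochberg p alone or with Benjamini-Hochberg adjustment when an array was left out or slide was a block were chosen after values were seen.

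Alternatives were scaling to the 75th percentile, the deposited log2 values, normexp (offset 50), no low-signal filter, a filter on detection above background in its place, inclusion of probes without a gene, Benjamini-Hochberg adjustment, trend and robust estimation in eBayes, 16 added before log2, replicate number or slide as a block, the mean of a gene's probes, and each array left out. Slide 1 held fetal 1, adult basal 1 and adult basal 3 and slide 2 the others.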

Additional observations from a re-analysis of the deposited data

How the results depend on the processing

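With Holm adjustment in limma, 2270 probes, 3 member probes and 11 pathway genes were called. Without the low-signal filter these counts were 1182, 1 and 6, with Benjamini-Hochberg adjustment 6133, 7 and 22, and with 1 array left out 952 to 2014, 1 to 2 and 6 to 10. In the fits without the low-signal filter and with 1 array left out, more tests or fewer samples enter the adjustment. With replicate number as a block, 1302 probes and no member probe were called with Holm adjustment in limma (lowest Holm-adjusted p = 0.053), while all 16 member probes had an unadjusted p under 0.05, and the cause was not tested. The labels do not say whether the numbers pair the samples. Fetal 1 and adult basal 1 shared a slide, as did fetal 2 and adult basal 2, while fetal 3 and adult basal 3 did not. The deviations of same-numbered arrays correlated at -0.03, 0.09 and 0.05. In the other settings all 3 counts stayed within 1.5 times of those reported. Over the 16 member probes and their alternatives, 254 of 279 values kept their side of the threshold, 19 lost a call, 6 gained one and 0 reversed. Fgf1 lost its call in 11 of 18 alternatives and Spry1 in 7 of 18, Etv5 in the replicate block alone, and Fgfr3 gained one with normexp, Benjamini-Hochberg and trend and robust estimation. Fgf2 did not pass the filter with normexp or with the offset of 16. The signal over background limits Fgf2, which was well above it on 5 of the 6 arrays.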
